A study of Mus musculus with 12 samples.

Results

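The replication-dependent core histone genes encode the H2A, H2B, H3 and H4 proteins that package newly made DNA. Their probe sets were picked by symbol from the platform annotation of the array: every symbol of the H2ac, H2bc, H3c or H4c series or of the older Hist series was taken, and linker H1 genes were not. The rule itself used no measured value. The rule found 58 of the 41345 probe sets, which name 57 genes of these series. Of these, 3 pairs held identical values and were counted once, which left 55 measurements: 16 of H2A, 15 of H2B, 12 of H3 and 12 of H4. Only 22 probe sets carried 1 symbol, for 21 genes, and none of those was an H3 gene. The other 36 probe sets were annotated to several near-identical copies, so that a value belongs to a group of copies rather than to 1 gene, and even a probe set with 1 symbol may pick up a close copy. A further probe set, shared by H1f4 and 3 H2B genes, was left out because it also reads a linker gene.

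Total RNA of male mouse embryonic stem cells of the line E14.wt (129P2/OlaHsd background) was hybridised to 12 Affymetrix Mouse Gene 2.0 ST arrays. In experiment A, 3 arrays labelled shcontrol_A came from cells infected with a lentivirus for a non-target short hairpin RNA (shRNA), and 3 labelled shMsl1_A from cells infected with a single shRNA clone against Msl1. In experiment B, 3 arrays labelled shcontrol_B and 3 labelled shNsl1_B came from cells infected in the same way with the non-target control or with a single shRNA clone against Nsl1, the scaffold of the NSL complex, whose mouse gene symbol is Kansl1. All cells were grown on CD1 feeder cells and then kept for a passage without them, so that feeder RNA may remain. The arrays of each group are numbered 1 to 3. The methods call the replicates biological, and the sources used here do not say what a shared number marks.

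Core histone mRNAs accumulate in S phase, when histone supply has to match DNA synthesis, and fall when replication ends. They lack introns and, unlike nearly all other mRNAs, end in a stem-loop bound by Slbp rather than in a poly(A) tail, so that Slbp, the U7 snRNP and the coactivator Npat set their level. Msl1 and Nsl1 are scaffolds of complexes that carry Mof, the acetyltransferase that modifies histone H4 itself. In total RNA from unsorted cells, fewer cells in S phase and less histone mRNA per cell cannot be told apart.

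The promoters of these genes share short elements that the choice by symbol did not use. RefSeq promoter windows (GRCm38.p6) were matched for 52 of the genes, and the 250 bases before the start were searched on both strands. The TATA box TATAAA was found in 46.2% of the histone promoters and in 12.9% of all 27025 mouse promoters. The CCAAT box was found in 80.8% against 34.2%, with all 17 H2A and all 14 H2B promoters but only 3 of 11 H4 promoters holding it. The octamer ATTTGCAT, the element through which Pou2f1 acts on H2B genes, was found in 13 of the 52 and in 1.59% of all promoters. It lay in 7 of 14 H2B and 6 of 17 H2A promoters and in none of the 10 H3 or 11 H4 promoters. The 150 bases before the start are given here for the marker genes H2ac21 and H2bc18, for H2bc1, the histone gene with the widest range across the arrays, and for H4c12, an H4 gene with a narrow range. Capitals mark the elements above on either strand. The octamer counted for H2bc1 lies within the 250 bases searched but outside the 150 printed.
H2ac21, chr3:96219735-96219884, plus strand: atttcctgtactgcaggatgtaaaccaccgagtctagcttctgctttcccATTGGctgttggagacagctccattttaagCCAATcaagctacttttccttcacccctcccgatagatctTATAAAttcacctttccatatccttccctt
H2bc18, chr3:96269550-96269699, plus strand: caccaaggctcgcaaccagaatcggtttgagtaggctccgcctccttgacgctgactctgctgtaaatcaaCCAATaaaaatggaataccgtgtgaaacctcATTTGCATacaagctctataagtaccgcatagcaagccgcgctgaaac
H2bc1, chr13:23934157-23934306, minus strand: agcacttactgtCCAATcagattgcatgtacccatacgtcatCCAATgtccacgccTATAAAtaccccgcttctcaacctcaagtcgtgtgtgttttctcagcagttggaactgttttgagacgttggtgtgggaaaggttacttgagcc
H4c12, chr13:21750554-21750703, minus strand: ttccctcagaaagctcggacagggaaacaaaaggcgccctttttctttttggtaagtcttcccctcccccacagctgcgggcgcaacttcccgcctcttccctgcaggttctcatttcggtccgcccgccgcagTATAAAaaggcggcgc
A match is a description of the letters and not evidence of a bound factor. The genes lie in clusters, and 38 of the 58 probe sets name genes on chromosome 13 alone, 8 on chromosome 3 alone and 12 on several chromosomes.

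The level of the targeted gene went against the label on 2 arrays of experiment A. Msl1 read 6.90 on the array labelled shcontrol_A 2, below 8.56 and 8.62 on the other controls, and 9.18 on the array labelled shMsl1_A 2, above 6.77 and 7.64 on the other arrays labelled shMsl1_A. Results of experiment A are therefore given for arrays as labelled, and again without those 2 arrays, the arrays of doubtful label. On shcontrol_A 2 the small nuclear and nucleolar RNAs, a list of 104 looked at after the values were seen, also stood apart, with a median deviation of 1.14 from their own means against -0.41 to 0.37 on the other 11 arrays. In experiment B, 1 Kansl1 probe set (17547591) read 6.45, 6.56 and 6.71 on the shNsl1_B arrays and 7.33, 7.30 and 7.36 on their controls (adjusted p = 0.297 by limma). The other Kansl1 probe set (17270621) read 8.47, 8.92 and 9.30 against 9.14, 9.36 and 9.52, with overlapping ranges, and neither passed the test. The embryonic stem cell markers Nanog (11.56 to 12.18) and Sox2 (10.86 to 11.68) were bright on all 12 arrays. Zfp42, Tdgf1, Utf1, Fgf4 and Lin28a, from the same list, lay at 9.43 or above. Pou5f1 (8.73 to 9.42) and Esrrb (7.10 to 8.29) were less bright, and Dppa5a was dim, at 5.02 to 5.53. The median signal of an array ran from 5.58 to 5.78. The level below which 90% of the probe sets lay was 9.61 to 9.62 in experiment A and 9.50 to 9.52 in experiment B, so the 2 experiments may have been normalized separately, which touches every comparison of A with B below.

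Core histone signals divided the 12 arrays, and the split did not follow the knockdown labels throughout. After subtracting each probe set's mean over all arrays, the median of the 55 members on the log2 scale was 0.49, 0.51 and 0.47 on the 3 shcontrol_A arrays. It was 0.48 on the array labelled shMsl1_A 1 but -0.42 and -0.27 on the arrays labelled shMsl1_A 2 and 3. In experiment B it was 0.30, -0.32 and -0.44 on shcontrol_B 1, 2 and 3 and 0.35, -0.39 and -0.71 on shNsl1_B 1, 2 and 3. The histone genes were thus high on all arrays of shcontrol_A and on replicate 1 of the other 3 groups, and low on replicates 2 and 3 of those 3 groups. In experiment A both low arrays carried the label shMsl1_A. The part of the knockdown in the split was not tested. The split ran through most members. Of the 55, 53, 54 and 51 lay above their own mean on the shcontrol_A arrays and 53, 6 and 6 on shMsl1_A 1, 2 and 3. In experiment B 44, 7 and 1 did so on shcontrol_B 1, 2 and 3 and 48, 3 and 0 on shNsl1_B 1, 2 and 3. The spread within groups differed accordingly. The median SD of a member between the 3 arrays was 0.15 in shcontrol_A, close to the 0.12 of all probe sets, but 0.55 in shMsl1_A, 0.38 in shcontrol_B and 0.50 in shNsl1_B, where all probe sets had 0.16, 0.16 and 0.17.

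**Figure D1:**
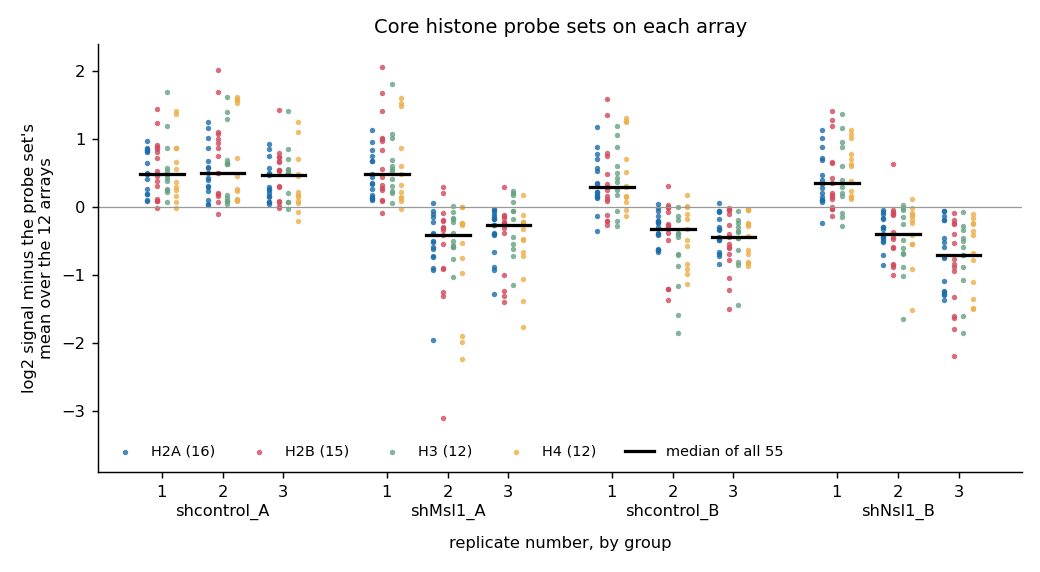
Log2 signal of each of the 55 core histone measurements minus its own mean over the 12 arrays (y axis), for every array (x axis, replicate number within group); points are probe sets coloured by family and bars are the median of all 55. The medians were 0.47 to 0.51 on the shcontrol_A arrays, 0.30 to 0.48 on replicate 1 of the other groups, and -0.71 to -0.27 on their replicates 2 and 3.

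Among the H2A genes, H2ac21 (probe set 17400539) had log2 signals of 10.44, 9.89 and 10.16 in shcontrol_A and of 9.85, 8.96 and 8.66 in shMsl1_A. In experiment B it read 10.46, 9.38 and 9.09 in shcontrol_B and 10.71, 9.08 and 8.29 in shNsl1_B. Replicate 1 was the highest array of every group, and in experiment B the control and knockdown ranges overlapped. A second probe set of the same gene (17408008) was dimmer and moved less, from 5.21 at its highest to 4.19 at its lowest. Below, H2ac21 without a number means probe set 17400539. H2ac10, measured by a probe set of its own, read 12.36, 12.17 and 12.13 in shcontrol_A, 12.22, 11.37 and 11.61 in shMsl1_A, 12.10, 11.74 and 11.56 in shcontrol_B and 12.28, 11.59 and 11.42 in shNsl1_B. H2ac1, which encodes an H2A variant best known from the testis, read 12.02, 12.41 and 12.01 in shcontrol_A, 12.11, 9.19 and 9.88 in shMsl1_A, 11.93, 10.95 and 10.72 in shcontrol_B and 11.87, 10.69 and 10.07 in shNsl1_B. In both genes no array numbered 2 or 3 outside shcontrol_A reached any array numbered 1.

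Among the H2B genes, H2bc18 read 10.08, 10.66 and 10.08 in shcontrol_A and 9.99, 9.01 and 9.25 in shMsl1_A. Its values in experiment B were 9.81, 9.30 and 8.95 in shcontrol_B and 9.73, 9.11 and 8.67 in shNsl1_B. The partner of H2ac1 in the testis, H2bc1, stood out after its values were seen. It had 9.15, 9.40 and 9.13 in shcontrol_A and 9.12, 4.61 and 6.31 in shMsl1_A. In experiment B it had 9.29, 7.42 and 6.21 in shcontrol_B and 9.12, 7.23 and 5.51 in shNsl1_B. On the shcontrol_A arrays and on replicate 1 of the other groups H2bc1 held within 9.12 to 9.40, and on the other 6 arrays it was scattered from 4.61 to 7.42. H2bc12 also tracked the split, with 10.96, 12.07 and 10.84 in shcontrol_A, 12.12, 8.74 and 9.04 in shMsl1_A, 10.39, 9.73 and 9.0 in shcontrol_B and 10.40, 9.04 and 8.25 in shNsl1_B. H2bc3, also with a probe set of its own, stayed between 10.05 and 11.45. A probe set shared by H2bc4, H2bc8 and H2bc6 (17285851), also singled out after its values were seen, went the other way. It read 8.05, 7.95 and 8.04 in shcontrol_A, 7.97, 8.26 and 8.35 in shMsl1_A, 7.79, 8.37 and 7.67 in shcontrol_B and 8.03, 8.69 and 7.53 in shNsl1_B, so that replicate 2 was above replicate 1 in those last 3 groups. H2bc21, near the bottom of the scale, had replicates 1 and 2 at 3.87 and 3.88 in shMsl1_A and at 3.46 and 3.50 in shNsl1_B.

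All H3 measurements came from probe sets of several genes. A probe set shared by H3c1, H3c11, H3c10 and H3c8 (17285821) read 7.83, 7.74 and 7.54 in shcontrol_A, 7.93, 5.37 and 5.51 in shMsl1_A, 6.55, 4.53 and 4.69 in shcontrol_B and 7.09, 4.49 and 4.27 in shNsl1_B. It fell into the same high and low arrays, with a lower level in experiment B besides. A probe set shared by H3c15 and 7 other genes (17400555) showed the second difference without much of the first: 9.27, 9.43 and 9.36 in shcontrol_A, 9.40, 8.72 and 8.98 in shMsl1_A, 8.51, 8.42 and 8.35 in shcontrol_B and 8.52, 8.32 and 8.29 in shNsl1_B. Every array of experiment B lay below every array of experiment A for it.

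Of the H4 genes, H4c9 read 6.39, 5.84 and 5.82 in shcontrol_A, 5.87, 4.75 and 5.23 in shMsl1_A, 6.99, 5.15 and 5.30 in shcontrol_B and 6.51, 5.53 and 5.32 in shNsl1_B. A probe set common to 13 H4 genes (17291180) ranged far more, with 7.23, 7.40 and 7.07 in shcontrol_A, 7.42, 3.83 and 4.43 in shMsl1_A, 7.07, 4.90 and 4.95 in shcontrol_B and 6.82, 4.30 and 4.33 in shNsl1_B. The shcontrol_A arrays and replicate 1 of the other groups lay within 6.82 to 7.42 and the other 6 arrays within 3.83 to 4.95. H4c14 read 7.24, 7.98 and 6.82 in shcontrol_A, 7.24, 6.12 and 5.70 in shMsl1_A, 6.67, 5.24 and 5.57 in shcontrol_B and 6.75, 5.83 and 5.27 in shNsl1_B. H4c12 was split in the same way within a far narrower range, 12.70 to 13.10. The size of the shift differed with brightness: the fitted difference of replicate 3 from replicate 1 had a median of -1.07 over the 25 members with a mean signal of 6 to 10, -0.26 over the 10 above 10 and -0.49 over the 20 below 6. Whether the ends of the signal scale compressed the differences there was not tested.

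**Figure D2:**
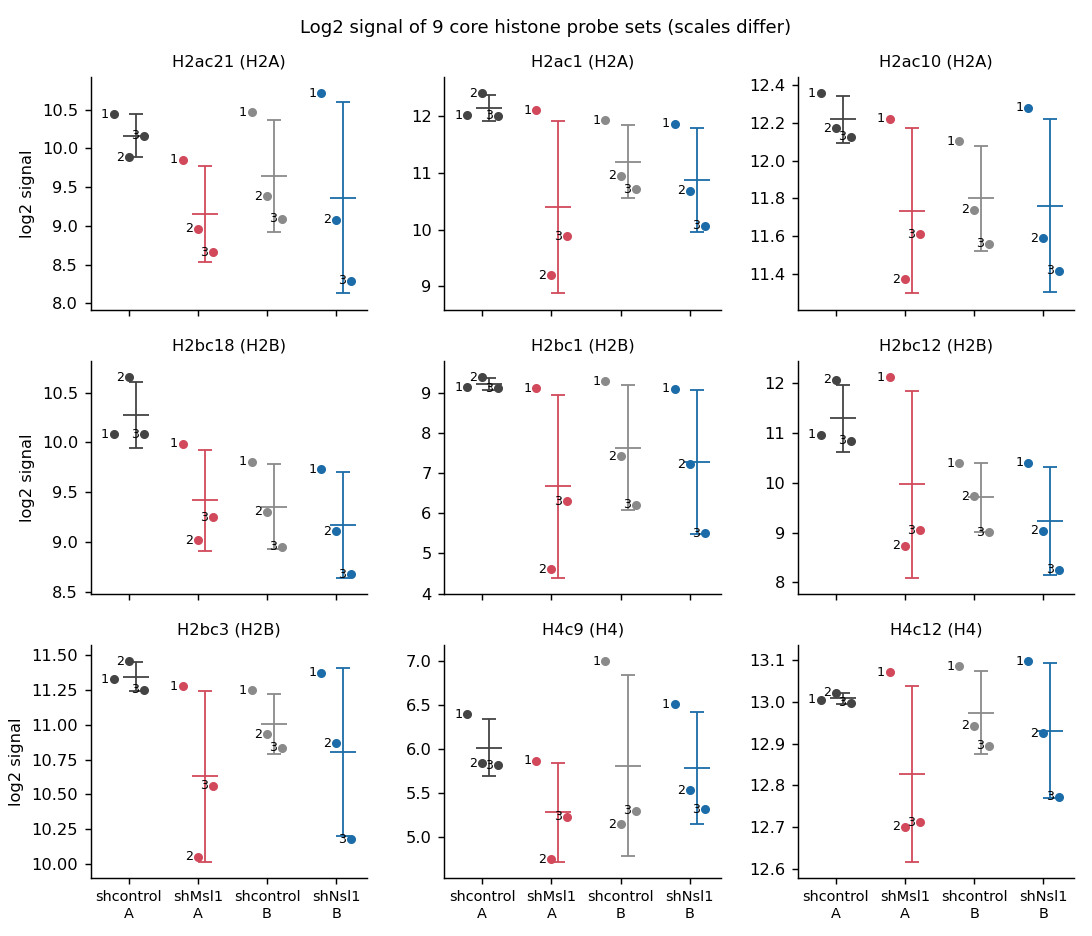
Log2 signal (y axis, scale differs between panels) of 9 core histone probe sets in the 4 groups (x axis); numbered points are arrays by replicate number, and the bars give mean and SD of 3 arrays. In shMsl1_A, shcontrol_B and shNsl1_B, replicate 1 lies above replicates 2 and 3 in every panel, for example H2bc1 at 9.12 against 4.61 and 6.31 in shMsl1_A.

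The replicate numbers were compared across the 4 groups in a fit with group and number. Replicate 3 was below replicate 1 in all 4 groups for 44 of the 55 members, a pattern found for 14.7% of all probe sets. Replicate 2 was below replicate 1 in all 4 groups for 20 members, against 13.5% of all probe sets, while within shcontrol_A alone only 24 of the 55 were lower in replicate 2. Replicate 3 was below replicate 2 throughout for 3, against 5.36%. The median difference between replicates 3 and 1 was -0.62 over the members and -0.00 over all probe sets, and all 55 fitted differences were negative. By limma with adjustment over all probe sets, 25 members were lower in replicate 3 than in replicate 1, where 3.7% of all probe sets were, and none was higher. They were 8 of 16 H2A, 5 of 15 H2B, 4 of 12 H3 and 8 of 12 H4 measurements. Between replicates 2 and 1 limma called 2 members lower, H4c9 and the probe set of H2ac8 and 9 other H2A genes (17291186), where 0.237% of all probe sets were called lower, with a median of -0.52. Between replicates 3 and 2 it called 0 members lower, as it did over all probe sets (0%), with 0 members at an unadjusted p under 0.05 and a median of -0.06. At that unadjusted p, 518 of all 41345 probe sets were lower and 1291 higher.

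The fitted differences of single genes average over the 4 groups and need not be the size of the step in any of them. Within groups the members' median difference of replicate 3 from replicate 1 ran from -0.13 in shcontrol_A to -0.91 in shNsl1_B. H2bc1 read 9.15 and 9.13 on shcontrol_A 1 and 3 but 9.12 and 5.51 on shNsl1_B 1 and 3. By the fit, H2ac21 was 2.49-fold lower in replicate 3 than in replicate 1 (log2 difference -1.32 ± 0.26, SE, adjusted p = 0.0269 by limma). The dimmer probe set of that gene (17408008) was 1.32-fold lower (-0.40 ± 0.10, adjusted p = 0.0438). H2bc9 was 3.26-fold lower (-1.71 ± 0.37, adjusted p = 0.0303), and a probe set of 10 H2A genes (17291057) 3.04-fold lower (-1.60 ± 0.28, adjusted p = 0.0207). H4c9 was 2.03-fold lower (-1.02 ± 0.20, adjusted p = 0.0262) and H2ac10 1.48-fold lower (-0.56 ± 0.12, adjusted p = 0.0301). H2bc18 (-0.66 ± 0.22) and H2bc1 (-2.38 ± 0.71) missed the threshold, with adjusted p = 0.08 and adjusted p = 0.0602 by limma, although H2bc1 had the most negative difference of all 41345 probe sets. Of the 100 probe sets with the most negative differences, 21 were members.

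The calls rest on few arrays. The moderated F test over the 3 numbers called 4 members, where 2.55% of all probe sets were called. Within experiment B alone the F test called 32 members, where 14.6% of all probe sets were called, and within experiment A it called 0 members and 0% of all probe sets. Without the shcontrol_A arrays, a choice made after seeing their values, it called 37, where 18.2% of all probe sets were called. Between replicates 3 and 1 limma called 0 members when shMsl1_A 1, shMsl1_A 3, shcontrol_B 1, shcontrol_B 3, shNsl1_B 1 or shNsl1_B 3 was left out, settings that called from 0.00484% to 1.5% of all probe sets in either direction, against 11.4% with all arrays. It called 6 members without shcontrol_B 2 (3.94% of all probe sets), 5 without shNsl1_B 2 (4.18%) and 44 without shcontrol_A 1 (25.3%). The median difference kept its sign throughout, between -0.79 and -0.50. Without the 2 arrays of doubtful label, 23 members and 8.69% of all probe sets were called between replicates 3 and 1. Within single groups the median difference of replicate 3 from replicate 1 was -0.13 in shcontrol_A, -0.73 in shMsl1_A, -0.58 in shcontrol_B and -0.91 in shNsl1_B.

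**Figure D3:**
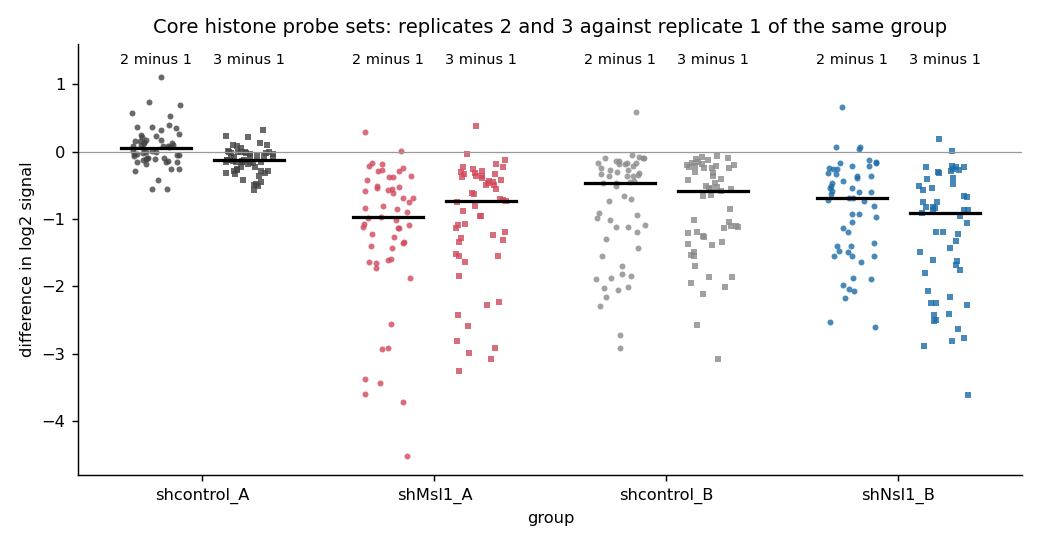
Difference in log2 signal (y axis) of each of the 55 core histone measurements between replicates 2 and 1 (circles) and 3 and 1 (squares) of the same group (x axis); bars are medians. In shcontrol_A the medians were 0.05 and -0.13, and in the other 3 groups they lay between -0.97 and -0.47.

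Across the arrays as labelled in experiment A, 53 of the 55 members had a lower mean in shMsl1_A than in shcontrol_A, with a median log2 difference of -0.58 against -0.00 over all probe sets. The comparison was designed to find genes that depend on the MSL complex, but Msl1 itself differed by only -0.16 ± 0.74 (SE, adjusted p = 0.953 by limma) between the arrays as labelled. By family the medians were -0.61 for H2A, -0.66 for H2B, -0.36 for H3 and -0.47 for H4. H2ac21 averaged 9.16 ± 0.62 (SD, n = 3) against 10.16 ± 0.28, a difference of -1.01 ± 0.32 (SE) or 2.01-fold, and H2bc18 averaged 9.42 ± 0.51 against 10.27 ± 0.33, a difference of -0.86 ± 0.29. The dimmer H2ac21 probe set (17408008) differed by -0.24 ± 0.16 or 1.18-fold, with overlapping ranges. H2bc1 differed by -2.55 ± 1.07, the most negative difference of all probe sets. None of this passed the test: limma called 0 members and 0% of all probe sets, with 5 members at an unadjusted p under 0.05, all lower, and an adjusted p of 0.622 at the lowest. Of all 41345 probe sets, 1207 were lower and 1956 higher at that unadjusted p. For 6 members, H2ac21, H2bc18 and H2bc1 among them, all 3 arrays labelled shMsl1_A lay below all 3 controls, as for 5.78% of all probe sets. For each of these 3 genes a two-sided exact permutation test had p = 0.1, which is the smallest that 3 against 3 arrays allow. Arrays that do not overlap always give that value, so the test adds nothing to the separation. For H2bc1 the separation was narrow, with 9.12 on shMsl1_A 1 against 9.13 on shcontrol_A 3. The rank-based method that the study used, FCROS, which makes no adjustment, called 13 members lower and 0 higher, where it called 1.35% of all probe sets lower.

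One array decided the outcome in experiment A. Each array was left out in turn, and shMsl1_A 1 was singled out after its values were seen. Without shMsl1_A 1, whose histone signals matched those of the controls, limma called 39 members lower, and the median difference was -0.90. Of all probe sets, 6.02% were called lower there and 16.4% in either direction. H2ac21 then had a difference of -1.35 (adjusted p = 0.00877 by limma) and H2bc18 of -1.14 (adjusted p = 0.0177). The array left out held the values against the difference, so these calls cannot test it. That array carried the lowest Msl1 level of its group, 6.77, and shMsl1_A 2, with the highest, 9.18, had the lowest histone signals. Without the 2 arrays of doubtful label, limma called 0 members and the median was -0.33.

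In experiment B the histone genes did not separate knockdown from control. The comparison addresses the genes that depend on the NSL complex. Of the 55 members, 34 had a lower and 21 a higher mean in shNsl1_B, with a median of -0.05 against 0.01 over all probe sets, and the differences ran from -0.49 to 0.27. H2ac21 averaged 9.36 ± 1.24 (SD, n = 3) in shNsl1_B and 9.65 ± 0.72 in shcontrol_B, a difference of -0.28 ± 0.68 (SE). Its dimmer probe set (17408008) differed by 0.02 ± 0.20. H2bc18 averaged 9.17 ± 0.53 against 9.35 ± 0.43, a difference of -0.18 ± 0.33. These SEs come from the fit that does not pair arrays by number. Limma called 0 members and 0% of all probe sets, with 1 member, H2ac12, at an unadjusted p under 0.05. Of all 41345 probe sets, 1418 were lower and 757 higher at that unadjusted p. H2ac12 was also the only member with all 3 knockdown arrays below all 3 controls, as were 5.64% of all probe sets, and it lay near the bottom of the scale, at 3.06 to 3.24 against 3.33 to 3.43. FCROS called 1 member lower, where it called 3.36% of all probe sets lower. In this experiment same-numbered arrays deviated together over all probe sets, and the fit with the replicate number as a block also called 0 members and 0% of all probe sets, with 5 members at an unadjusted p under 0.05. In that fit 3291 of all 41345 probe sets were lower and 2855 higher at the same unadjusted p. Its SE was 0.085 for H2bc18 (adjusted p = 0.407 by limma) and 0.20 for H2ac21 (adjusted p = 0.608). Every shNsl1_B array read below its same-numbered control for H2bc18, but shNsl1_B 1 read above it for H2ac21.

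The knockdown effects themselves were set against each other in a fit of all 12 arrays. The effect in experiment B minus that in experiment A was positive for 53 of 55 members, with a median of 0.48 against 0.01 over all probe sets, but limma called 0 members, with 0 at an unadjusted p under 0.05, and 0.00967% of all probe sets. At that unadjusted p, 1616 of all 41345 probe sets had a negative and 1052 a positive difference. H4c2, an H4 gene near the bottom of the scale, had the smallest unadjusted p among the members, with a difference of 0.39 (adjusted p = 0.801). Without the 2 arrays of doubtful label, the median was 0.28, and with single arrays left out it ran from 0.23 (without shNsl1_B 1) to 0.80 (without shMsl1_A 1).

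Mean histone signals were lower in the controls of experiment B than in those of experiment A. Both are the same line with the same non-target shRNA, and 54 of the 55 members had a lower mean in shcontrol_B, with a median of -0.66 against -0.03 over all probe sets. The shcontrol_B arrays were not alike. The members' median deviation was 0.30 on shcontrol_B 1, -0.32 and -0.44 on shcontrol_B 2 and 3, and 0.47 to 0.51 in shcontrol_A. The split between high and low arrays thus enters these means, and its part in the difference was not tested. Limma called 7 members, all lower, where 5.17% of all probe sets were called lower and 7.81% in either direction. They include the probe set of H3c15 and 7 others (17400555), at 8.42 ± 0.08 (SD, n = 3) against 9.35 ± 0.08 (adjusted p = 0.00846), the probe set of H3c11 and 3 others (17291008), at 4.04 ± 0.14 against 4.99 ± 0.05 (adjusted p = 0.0113), and H2bc21, at 3.29 ± 0.13 against 3.94 ± 0.18 (adjusted p = 0.0227). For 22 members all 3 shcontrol_B arrays lay below all 3 shcontrol_A arrays, a share of 40% where 22% of all probe sets did so. The probe set with the most negative difference of all, 17285821 of H3c1 and 3 others, differed by -2.44 ± 0.88 (SE) but did not pass (adjusted p = 0.114), with shcontrol_B 1, at 6.55, far above 4.53 and 4.69 on the other 2. Separate normalization of the 2 experiments and this difference cannot be told apart. The count of 7 ran from 2 to 9 when single arrays were left out and was 1 without the 2 arrays of doubtful label. The share of all probe sets called in either direction moved too. It was 2.81% to 3.5% where 2 members were called, 9.99% at 9 and 1.65% without the 2 arrays.

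**Figure D4:**
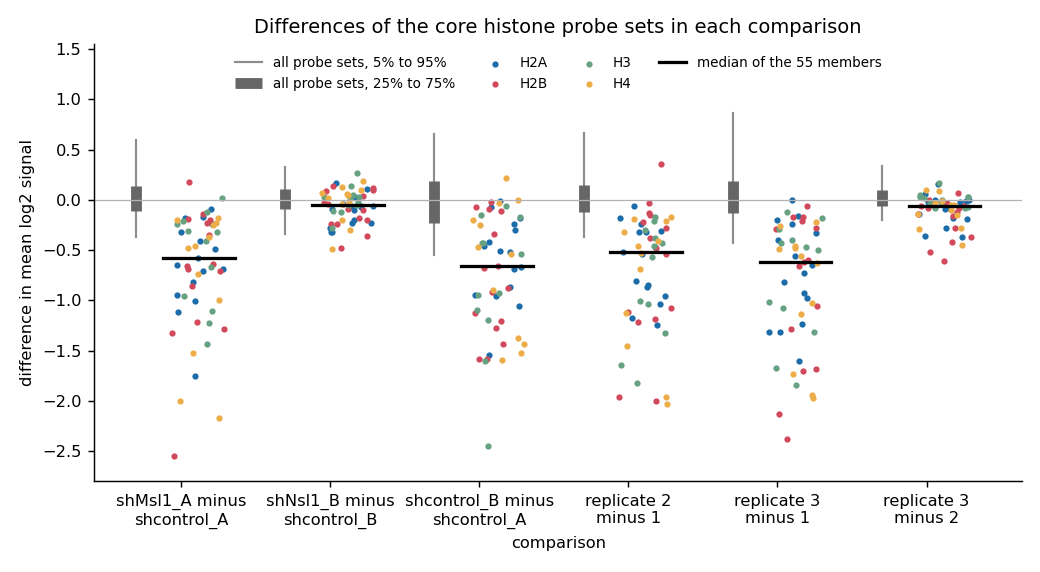
Difference in mean log2 signal (y axis) of the 55 core histone measurements in each comparison (x axis), coloured by family, with their median as a black bar; grey lines span 5% to 95% and grey boxes 25% to 75% of all 41345 probe sets. The medians were -0.58 for shMsl1_A, -0.05 for shNsl1_B, -0.66 between the controls, and -0.52, -0.62 and -0.06 between replicate numbers.

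Genes that work with the core histones moved with them only in part. Of 38 measured genes for entry into S phase and DNA replication, 36 were lower in replicate 3 than in replicate 1, with a median of -0.36, and limma called 11 of them lower and 0 higher, where 3.7% of all probe sets were called lower and 7.69% higher. They include Ccne1, the cyclin of S phase entry (-0.49 ± 0.11, SE, adjusted p = 0.0332), Mcm2 of the replicative helicase (-0.44 ± 0.10, adjusted p = 0.0335) and Rfc5 of the clamp loader (-0.39 ± 0.09, adjusted p = 0.0341). Of 18 measured histone mRNA factors, 2 were called lower and 2 higher, with a median of -0.20. The higher ones were Casp8ap2, which is needed for histone mRNA synthesis (0.66 ± 0.11, adjusted p = 0.0185), and the terminal uridylyltransferase gene Tut7 (0.78 ± 0.13, adjusted p = 0.02). Among 18 histone chaperones and remodellers 3 were called lower and 1 higher. The higher one was Atrx (1.33 ± 0.17, adjusted p = 0.0119), while its partner Daxx was lower (-0.53 ± 0.12, adjusted p = 0.0326). Of 7 replacement histones, which are made outside S phase as well, all were lower and limma called 1, H2az1 (-0.69 ± 0.18, adjusted p = 0.0459). In the knockdown comparisons of experiments A and B limma called none of these list genes. Between the controls it called the replication gene Gins4 lower in shcontrol_B (-0.64 ± 0.14, adjusted p = 0.025). It also called the chaperones Asf1a (adjusted p = 0.0346) and Rbbp4 (adjusted p = 0.0372) and the histone mRNA factor Mif4gd (adjusted p = 0.0338) lower. The histone mRNA factor Cstf2 was called higher (adjusted p = 0.0476). Of all probe sets, 5.17% were called lower there and 7.81% in either direction.

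Markers of other cells, taken as a list, moved with the histone split. The 21 measured fibroblast markers, which feeder cells would carry, had median deviations of -0.31, -0.44 and -0.45 on the shcontrol_A arrays and -0.46, 0.40 and 0.25 on shMsl1_A 1, 2 and 3. In experiment B they had -0.25, 0.34 and 0.17 in shcontrol_B and -0.26, 0.48 and 0.60 in shNsl1_B. Their median was below 0 where that of the histone genes was above 0, and the reverse, on all 12 arrays. Not every marker followed. Of the 21, 1 to 5 lay above their own mean on the arrays with high histone signals and 15 to 21 on the others. Thy1 was highest, at 7.36, on shMsl1_A 1, where histone signals were high. The summed log2 signal of the 21 markers was 148.88 to 153.50 in shcontrol_A, 151.10 to 170.59 in shMsl1_A, 154.95 to 168.35 in shcontrol_B and 153.04 to 174.24 in shNsl1_B. Col1a1, a fibroblast collagen, ran from 7.28 to 9.93, and Lum stayed at the bottom of the scale, at 3.40 to 3.77. Limma called 0 of the 21 between replicates 3 and 1, with 12 higher at an unadjusted p under 0.05. At that unadjusted p, 7337 of all 41345 probe sets were higher. The 10 stem cell markers had medians of 0.12 to 0.19 in shcontrol_A, 0.16, -0.42 and -0.27 in shMsl1_A, 0.23, -0.14 and 0.03 in shcontrol_B and 0.19, -0.15 and -0.07 in shNsl1_B. The median signal of the whole array also moved with the histones, at 5.58 to 5.60 in shcontrol_A and on replicate 1 of the other groups and at 5.66 to 5.78 on the remaining 6 arrays. The part of these in the histone differences was not tested. Scaling all arrays to a common median put the median of all probe sets at -0.13 between replicates 3 and 1 and that of the members at -0.74, of which limma called 38, along with 16.3% of all probe sets against 11.4% unscaled.

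**Figure D5:**
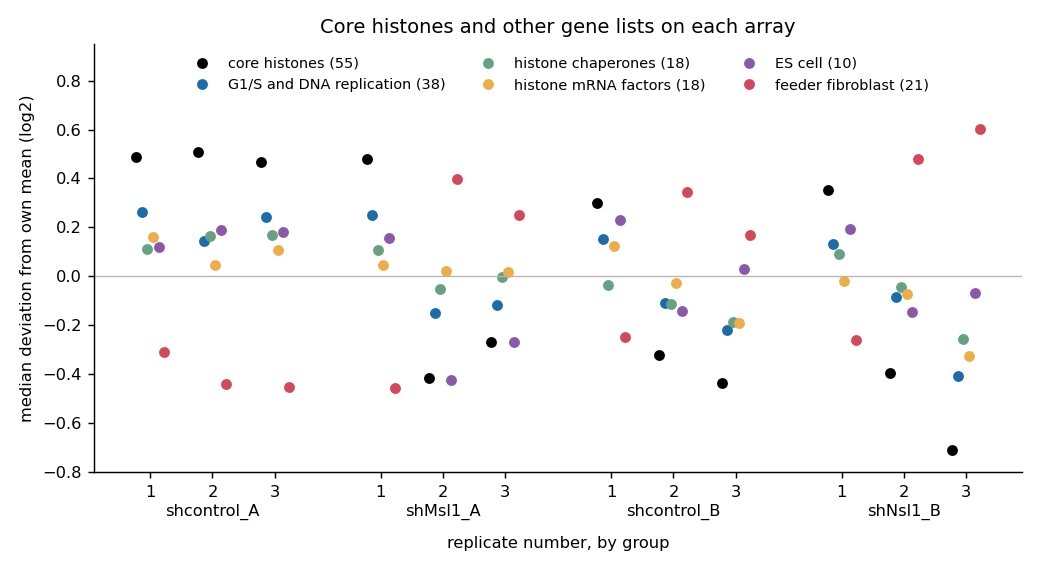
Median deviation from each probe set's own mean (y axis, log2) for the core histones and 5 other gene lists, with the number measured in brackets, on every array (x axis, replicate number within group). The median of the fibroblast markers lies on the opposite side of 0 from that of the histones on all 12 arrays, for example at 0.60 against -0.71 on shNsl1_B 3.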

How the data were processed

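The authors hybridised biotinylated cDNA made from total RNA with the Ambion WT Expression Kit and summarised the arrays with RMA in Affymetrix Expression Console 1.1. The deposited values are log2 signals of 41345 probe sets and were used unchanged and unfiltered. With 3 arrays a group, the number of arrays limits the precision, and p-values rest on the spread among them, which may be technical. Probe sets were named by the platform annotation, whose genome build the sources used here do not give. Comparisons used limma 3.58.1 in R 4.3.3 (lmFit and eBayes, two-sided), with p-values adjusted by Benjamini-Hochberg across the whole array at a threshold of 0.05. Experiments A and B were each fitted on their own 6 arrays, and the other comparisons on all 12. Scripts were tested on simulated data. The members and gene lists were chosen with earlier results of these data known. Named genes were H2ac21, H2bc18, the 2 brightest 1-symbol members of a family, the 2 of each family and up to 3 of each list with the smallest p in a comparison, and the targets. Any others were chosen after their values were seen. After removing group means, arrays with the same number correlated at 0.77, 0.33 and 0.70 in experiment B and at 0.05, -0.23 and 0.21 in experiment A. Control and knockdown arrays of experiment B with different numbers correlated at 0.15 at most. A pairing by number in experiment B was read from these values alone and is weakest for number 2. FCROS was rewritten with all 9 pairs, a trim of 0.25 and limits of 0.025 and 0.975. Alternatives covered array scaling, filters, single arrays left out and the replicate block.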

Additional observations from a re-analysis of the deposited data

How the results depend on the processing

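The median differences of the members moved by less than the spread between replicates (SD 0.41) under every alternative run. That SD takes in the high and low arrays of the split, so it is a wide measure and a smaller move is not evidence of stability. With single arrays left out, the median in experiment A, at -0.58, ran from -0.90 to -0.36. In experiment B, at -0.05, it ran from -0.28 to 0.18, and for the difference of effects, at 0.48, from 0.23 to 0.80. Counts of called members moved more. Shares of all tested probe sets called in either direction are given in brackets. For the arrays labelled shMsl1_A the count was 0, ran from 0 to 39 (16.4% at 39) with single arrays left out and was 13 by FCROS (3.02%). For shNsl1_B it was 0, 0 to 0 and 1 (5.21% by FCROS). For the controls it was 7 (7.81%) and fell to 3 with arrays scaled to a common median (4.47%) and to 1 with dim probe sets left out (0.88%). It was 1 without the 2 arrays whose Msl1 level contradicts the label (1.65%). With single arrays left out it ran from 2 (2.81% to 3.5%) to 9 (9.99%). For the F test over replicate numbers it was 4 (2.55%). It rose to 12 with dim probe sets left out (10.2%), 32 within experiment B (14.6%) and 37 without shcontrol_A (18.2%). It was 0 within experiment A (0%) and without those 2 arrays (0.29%). With single arrays left out it ran from 0 (0.00242% to 0.247%) to 38 (19.5%). Between replicates 3 and 1 it was 25 (11.4% of all), then 38 with scaled arrays (16.3%), 12 of 22 with 1-symbol probe sets only (13.4%), 0 within experiment A (0%), 42 without shcontrol_A (24.3%), and 0 to 44 with single arrays left out (25.3% at 44). Fewer probe sets tested changes the adjustment, and the cause of the other moves was not tested.

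In experiment B the direction of single genes hung on single arrays. H2ac21 ran from -0.96 to 0.25 and H2bc18 from -0.46 to 0.06 with an array left out, and turned positive without shcontrol_B 1 (0.13 and 0.04) or without shNsl1_B 3 (0.25 and 0.065). The replicate block left the counts at 0 and changed no call. Each block holds a control and a knockdown array, so the block cannot change a mean difference. The medians of -0.58 in experiment A, -0.05 in experiment B and 0.48 for the difference of effects were therefore fixed by the design.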
